A study of Mus musculus with 5 samples.

Results

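The genes described here are 10 drivers and markers of mitosis: the cyclins Ccna2, Ccnb1 and Ccnb2, the kinases Cdk1, Plk1 and Aurka, the phosphatases Cdc25b and Cdc25c, the transcription factor Foxm1 and the proliferation marker Mki67 (Ki-67). They were chosen by symbol, and each was represented by the array feature that names only that gene and has the highest mean over the 5 arrays. Of the 10 listed genes, 9 had such a feature, 1 each, among the 22180 genes analysed. The platform table named no feature for Ccnb1, so this cyclin was not analysed here. The data come from a study of retinoic acid and dormancy of hematopoietic stem cells (HSCs), the marrow cells that renew the blood lineages. C57BL/6 mouse stem and progenitor cells were kept for 24 h in 5 µM all-trans retinoic acid (ATRA), the active derivative of vitamin A, or in its solvent DMSO as control. HSCs were sorted by flow cytometry after the culture, and their RNA was measured on 3 arrays for DMSO and 2 for ATRA. The labels used here give no genotype, age or surface gate, and do not say whether replicates came from separate cultures or mice, so p-values cover just the spread among the samples at hand, possibly a technical one. In sorted cells measured in bulk, fewer cycling cells and less RNA per cell cannot be told apart.

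Entry into mitosis is set off by the kinase CDK1, which is inactive without a cyclin. Cyclin A2 serves it in S and G2 phase and the B-type cyclins in mitosis. CDC25 phosphatases remove the inhibitory phosphates from CDK1, Polo-like kinase 1 and Aurora A help to switch it on and build the spindle, and FOXM1 activates the transcription of many of these genes in G2. Ki-67 coats mitotic chromosomes and is made in cycling cells but not in resting ones. Most HSCs in the marrow rest, and culture with cytokines is known to draw them into cycle.

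Promoters of such genes commonly carry the cell cycle genes homology region, whose core reads TTTGAA or, in a variant, TTCGAA, and the CCAAT box bound by NF-Y. Ccna2, Foxm1 and Cdc25c had no entry in the promoter table from RefSeq (build GRCm38.p6) and were not searched. It held the other 7 of the 10 genes, among them Ccnb1. Windows of 300 bases ran from 250 before to 50 after the gene start used there. TTTGAA was found on either strand in 5 of these 7 genes and in 17.9% of all 32851 promoters. TTCGAA was found in 1 of the 7 and in 1.56% of all promoters, and CCAAT in all 7 and in 37.4%. A match is a description of letters, not a proven site. Ccnb1, which held CCAAT alone, the CCAAT of Cdk1 at position -208 and the TTTGAA of Ccnb2 at -167 are left out. The stretches shown hold the other matches. They are written 5′ to 3′ on the gene's strand, with matches to these motifs on either strand in capitals, and no match overlaps another.
Cdk1, chr10:69352913-69353012, minus strand: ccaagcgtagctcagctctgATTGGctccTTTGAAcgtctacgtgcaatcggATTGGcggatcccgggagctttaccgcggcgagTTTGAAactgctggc
Ccnb2, chr9:70421555-70421654, minus strand: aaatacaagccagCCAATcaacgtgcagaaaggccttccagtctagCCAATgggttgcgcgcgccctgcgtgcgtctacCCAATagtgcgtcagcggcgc
Ccnb2 at the start, chr9:70421537-70421558, minus strand: gcgcggtaTTTGAAtcgcggac
Plk1, chr7:122159375-122159434, plus strand: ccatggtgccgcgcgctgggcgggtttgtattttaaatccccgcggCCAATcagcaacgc
Plk1 after the start, chr7:122159457-122159478, plus strand: gcgccgcgTTTGAAttcgggga
Aurka, chr2:172370571-172370630, minus strand: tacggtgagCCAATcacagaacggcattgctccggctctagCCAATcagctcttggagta
Aurka after the start, chr2:172370525-172370546, minus strand: ggagaaccTTTGAAttgtaacg
Mki67, chr7:135716470-135716579, minus strand: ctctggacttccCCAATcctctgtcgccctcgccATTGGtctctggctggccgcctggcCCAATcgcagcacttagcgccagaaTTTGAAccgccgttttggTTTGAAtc
Cdc25b, chr2:131186888-131186947, plus strand: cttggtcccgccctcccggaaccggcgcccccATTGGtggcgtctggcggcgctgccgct
Cdc25b at the start, chr2:131186947-131186968, plus strand: tgttatttTTCGAAtatataag
Counted from +1 at the gene start, TTTGAA began at position 5 in Ccnb2, 31 in Plk1 and 33 in Aurka, at -71 and -15 in Cdk1, and at -116 and -98 in Mki67. A further copy in Ccnb2 began at -167. The genes with TTTGAA in this window included Plk1, Aurka and Mki67, which passed the test for lower values described next, and Cdk1 and Ccnb2, which did not. Cdc25b, which held TTCGAA, did not pass it either. Foxm1, which passed, could not be searched.

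Comparing ATRA with DMSO asks how retinoic acid in the culture bears on HSC transcripts. Values are the authors' deposited log2 expression values, a unit of 1 being a doubling, and the test was limma over all 22180 genes at a Benjamini-Hochberg adjusted p of 0.05. Mki67, Plk1, Foxm1 and Aurka fell with ATRA, by 12.5-fold, 4.42-fold, 2.48-fold and 2.46-fold. Cdk1, Ccna2, Ccnb2, Cdc25b and Cdc25c did not pass. So 4 of 9 genes were called lower and 0 higher (limma, 5 lower and 0 higher at an unadjusted p under 0.05), against 15.5% of all genes called lower and 6.48% called higher. The 9 genes had DMSO means between 6 and 11. In steps of 1 log2 unit over this range, 2.65%, 28.1%, 52.4%, 57.5% and 51.7% of all genes were called lower. At all but the lowest step the share was thus above 15.5%. The difference was negative for all 9 genes on the deposited values, with a median of -1.31, whereas 42.0% of all genes were negative and their median was 0.16. Both ATRA values lay below all DMSO values in 7 of the 9 genes and in 29.2% of all genes. For neither the sign nor this separation was a share of genes with like DMSO means counted. Genes with high DMSO means mostly had lower ATRA values. Without DMSO replicate 1, 2 or 3, 0 of the 9 genes passed (limma, 4 in each case at an unadjusted p under 0.05), and neither did any of the 22180 genes (limma, 5907 to 6065 at an unadjusted p under 0.05). Without ATRA replicate 1 or 2, the median of the 9 genes was -1.87 and -1.25. The fit then rests on a lone ATRA array, assumed to vary like the DMSO arrays, so no calls are given.

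Values were compressed in the ATRA arrays, most in the second. Over all 41345 features the SD was 1.96 to 1.97 for DMSO, and 1.77 and 1.49 for the ATRA replicates. Correlated over features, which are no replicates, any pair of DMSO arrays gave a Pearson's r of 0.966 to 0.978 and the ATRA pair 0.730. Genes with high DMSO values mostly had lower values in both ATRA arrays, so each gene below is also set beside all genes of the same DMSO level, in steps of 1 log2 unit. A lowess curve of each array's difference from the DMSO mean on that mean was subtracted in a further fit, called here the fit with the level trend removed. Whether ATRA or a technical difference between arrays set this trend was not tested. Centring each array on its median moved the median difference of all genes from 0.16 to -0.11, and the all-gene split from 1437 higher and 3428 lower to 560 and 4542. The same 4 genes were called lower after centring.

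**Figure D1:**
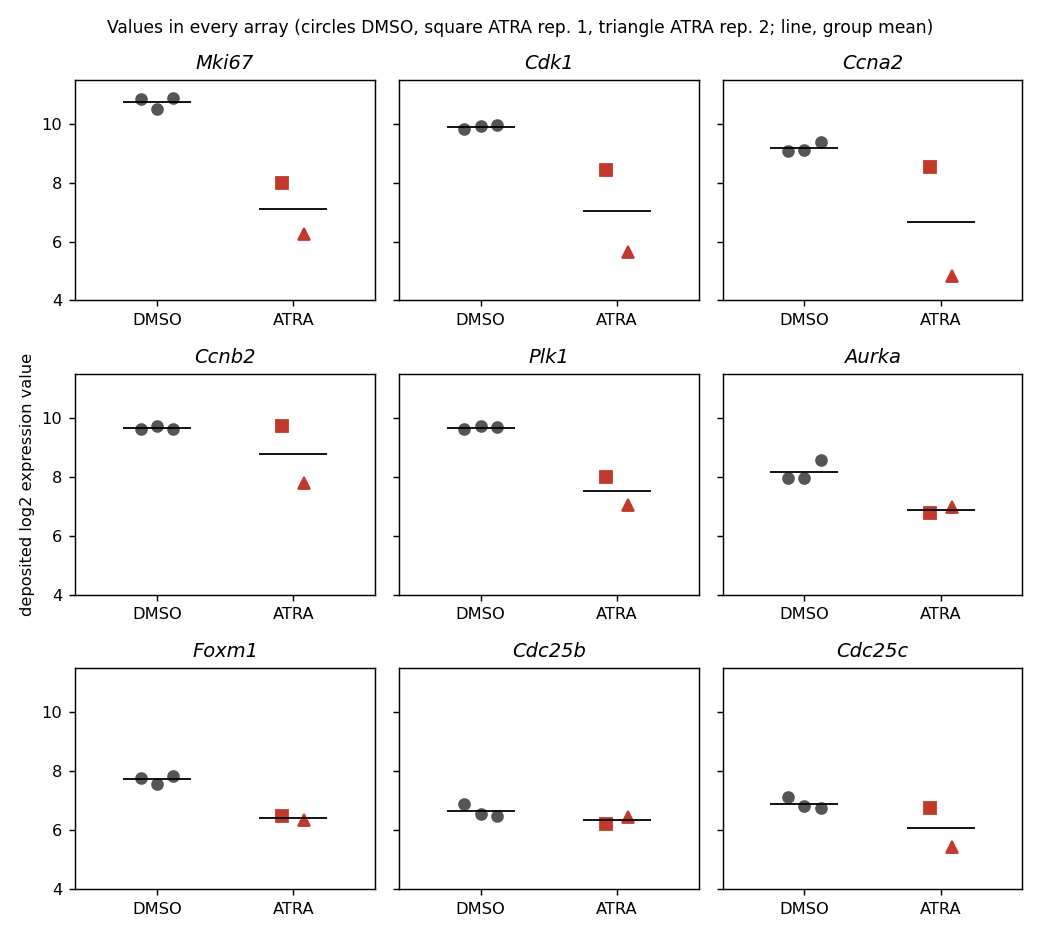
Deposited log2 expression values of the 9 genes in every array. Grey circles are the 3 DMSO arrays, the red square is ATRA replicate 1, the red triangle ATRA replicate 2, and lines are group means. Levels of different features are not comparable with each other. The ATRA values of Cdk1 and Ccna2 lie 2.79 and 3.72 apart, those of Foxm1 and Aurka 0.12 and 0.18.

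Mki67 had the largest difference of the 9 genes. Its values were 10.52, 10.90 and 10.85 in DMSO replicates 1 to 3, and 7.99 and 6.24 in ATRA replicates 1 and 2. Both ATRA arrays were far below all DMSO arrays, and the second was the lower. The log2 difference was -3.64 (SE 0.55, adjusted p = 0.0192), against a DMSO SD of 0.21 (n = 3). Ordered from the most negative difference, Mki67 ranked 52 among 22180 genes. Genes of like level, 466 with DMSO means between 10 and 11, had median differences from DMSO of -1.42 in ATRA replicate 1 and -3.23 in replicate 2, and Mki67 differed by -2.77 and -4.52. Among genes of that level 51.7% were called lower. Mki67 still passed with the level trend removed, just inside the threshold, at -1.17 (SE 0.20, adjusted p = 0.0499), and it was the only one of the 9 genes that did.

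Cdk1, the kinase at the centre of mitotic entry, was at 9.91, 9.97 and 9.82 in DMSO and at 8.43 and 5.64 in ATRA. The groups did not overlap, but the ATRA arrays lay 2.79 apart, where the DMSO arrays spanned 0.15. The log2 difference of -2.87 (SE 0.85, adjusted p = 0.0787) did not pass, and its 95% interval without adjustment ran from -5.13 to -0.60. In ATRA replicate 1 Cdk1 differed from the DMSO mean by -1.47, close to the median of -1.36 of 1223 genes whose DMSO mean lay between 9 and 10. In replicate 2 it differed by -4.26, against a median of -2.55. The difference was -0.70 once the level trend was removed (adjusted p = 0.331). Without ATRA replicate 1 the difference of Cdk1 was -4.26, and without replicate 2 it was -1.47, each from a lone ATRA array.

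Ccna2, the cyclin of S and G2 phase, was at 9.11, 9.39 and 9.09 in DMSO, and at 8.54 and 4.82 in ATRA. The first ATRA array was a little below the DMSO arrays and the second far below them. This gap of 3.72 was the widest between the ATRA arrays among the 9 genes. The log2 difference was -2.52 (SE 1.14, adjusted p = 0.171, 95% interval -5.54 to 0.50), and with the level trend removed -0.71 (adjusted p = 0.603). Set beside genes of the same level, Ccna2 was higher than their median in ATRA replicate 1 (-0.66 against -1.36) and lower in replicate 2 (-4.38 against -2.55). Without ATRA replicate 1 the difference of Ccna2 was -4.38, and without replicate 2 it was -0.66.

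Ccnb2, the B-type cyclin that could be measured, was at 9.74, 9.63 and 9.63 in DMSO and at 9.73 and 7.79 in ATRA. The first ATRA array lay within the DMSO values and only the second below them. The log2 difference on the deposited values was -0.90 (SE 0.60, adjusted p = 0.277, 95% interval -2.49 to 0.69), and it turned to 0.07 without ATRA replicate 2. Without replicate 1 it was -1.87. It also turned with the level trend removed, to 1.16 (SE 0.20, adjusted p = 0.0541), and after cyclic loess normalization to 0.79, where Ccnb2 was called higher (adjusted p = 0.0341). Genes of its level had medians of -1.36 and -2.55 in the 2 ATRA arrays, against 0.07 and -1.87 for Ccnb2. Of the 9 genes, 4 lay at this level, namely Cdk1, Ccna2, Ccnb2 and Plk1, and among these Plk1 alone was called lower, while 57.5% of all genes between 9 and 10 were.

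Plk1, the Polo-like kinase that acts from mitotic entry to cytokinesis, was at 9.71, 9.69 and 9.62 in DMSO and at 8.01 and 7.05 in ATRA. Both ATRA arrays were below all DMSO arrays, whose SD of 0.05 was the smallest of the 9 genes. Plk1 fell by 2.14 (SE 0.31, adjusted p = 0.0173). Its differences of -1.66 and -2.62 in the ATRA arrays were near the medians of -1.36 and -2.55 for genes of its level. A difference of -0.08 was left once the level trend was removed (adjusted p = 0.797).

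Aurka, which encodes the Aurora kinase of centrosomes and spindle poles, was at 7.98, 8.58 and 7.98 in DMSO and at 6.79 and 6.97 in ATRA. The ATRA arrays agreed closely and both lay below DMSO, where replicate 2 was the highest. Aurka fell by 1.30 (SE 0.24, adjusted p = 0.0293). The call was also not kept without either ATRA array (-1.21 without replicate 1 and -1.39 without replicate 2). It ended after quantile normalization (adjusted p = 0.114) and with the level trend removed (-0.14, adjusted p = 0.817). Genes at DMSO means between 8 and 9, 2582 in number, had medians of -0.97 and -1.73, and 52.4% of them were called lower. Aurka, at -1.39 and -1.21, was below their median in the first ATRA array and above it in the second. Its values in DMSO replicates 1 and 3 were equal to the last deposited digit, as were those of Ccnb2 in replicates 2 and 3. At least 2 equal DMSO values were found in 39.9% of all genes, and the spread of such genes rests on fewer distinct values.

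Foxm1, the transcription factor of G2 and M phase genes, had the smallest adjusted p of the 9 genes. It was at 7.56, 7.84 and 7.77 in DMSO and at 6.47 and 6.35 in ATRA. The ATRA arrays differed by 0.12, less than the DMSO range of 0.28, and both lay below all DMSO values. Foxm1 fell by 1.31 (SE 0.14, adjusted p = 0.0103). It was further from DMSO than the median of the 3409 genes between 7 and 8 in both ATRA arrays, at -1.25 against -0.48 and at -1.37 against -0.76, and 28.1% of these genes were called lower. The call was kept after cyclic loess normalization, as was that of Mki67 but not those of Plk1 and Aurka. With the level trend removed the difference was -0.49 (SE 0.17, adjusted p = 0.186).

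The phosphatase genes Cdc25b and Cdc25c had the lowest deposited DMSO means of the 9 genes and did not pass. Cdc25b was at 6.53, 6.49 and 6.87 in DMSO and at 6.21 and 6.45 in ATRA, so the groups lay close without overlapping. Its difference was -0.30 (SE 0.18, adjusted p = 0.247, 95% interval -0.78 to 0.18), the smallest of the 9, and -0.32 with the level trend removed. Cdc25c was at 6.82, 6.75 and 7.13 in DMSO and at 6.75 and 5.41 in ATRA, where the first array overlapped with DMSO and the second did not. Its difference was -0.82 (SE 0.44, adjusted p = 0.222, 95% interval -1.98 to 0.34), and -0.64 with the trend removed. Without ATRA replicate 1 the difference of Cdc25c was -1.49, and without replicate 2 it was -0.15. Genes with a DMSO mean from 6 to 7 had medians near 0 in the ATRA arrays, 0.04 and 0.16, and 2.65% of them were called lower. Within arrays, Cdc25b minus Cdc25c was -0.29, -0.26 and -0.26 in DMSO and -0.55 and 1.04 in ATRA. This contrast changed by 0.52 between the groups (exact two-sided permutation test, p = 0.7, where 3 against 2 arrays cannot give less than 0.1). The like contrast of Ccnb1 with Ccnb2 could not be made.

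**Figure D2:**
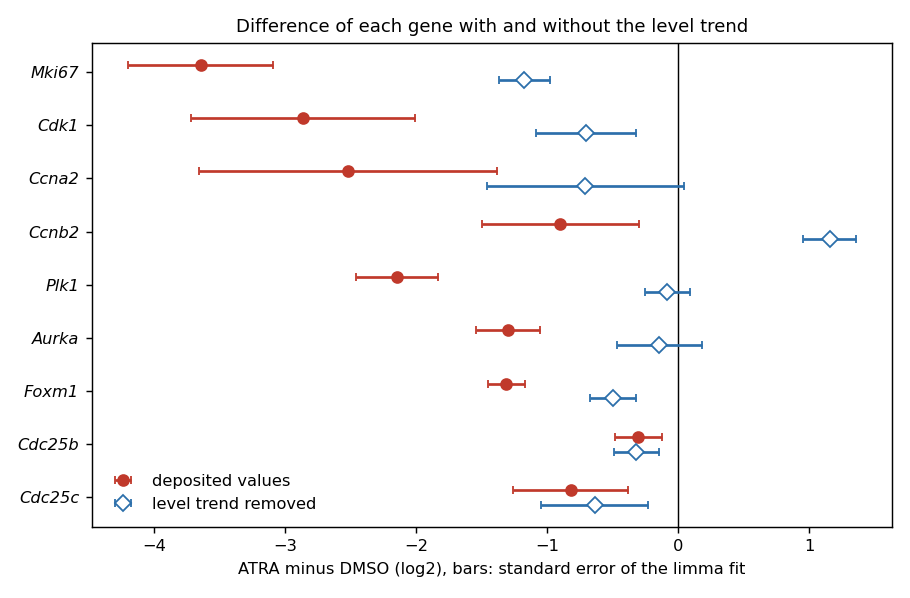
Log2 difference between ATRA and DMSO for each of the 9 genes, from limma on the deposited values (red circles) and with the level trend removed (open blue diamonds). Bars are standard errors. All 9 differences are below 0 on the deposited values, while with the trend removed Ccnb2 lies at 1.16 and the other 8 between -1.17 and -0.08.

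Beside all genes of the same level, 6 of the 9 genes were lower than the median in both ATRA arrays, namely Mki67, Cdk1, Plk1, Foxm1, Cdc25b and Cdc25c. As many genes lie below a median as above it in each array. The share of all genes below it in both arrays was not counted, so this is only a description. Ccna2 was lower only in the second array, Aurka only in the first, and Ccnb2 in neither. With the level trend removed the median of the 9 genes was -0.49, with 8 negative and 1 positive, and 1 was called lower and 0 higher (limma, 2 lower and 1 higher at an unadjusted p under 0.05), against 0.996% of all genes called lower and 2.16% called higher in that fit. After cyclic loess normalization 2 were called lower and 1 higher, against 6.78% and 3.48% of all genes.

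**Figure D3:**
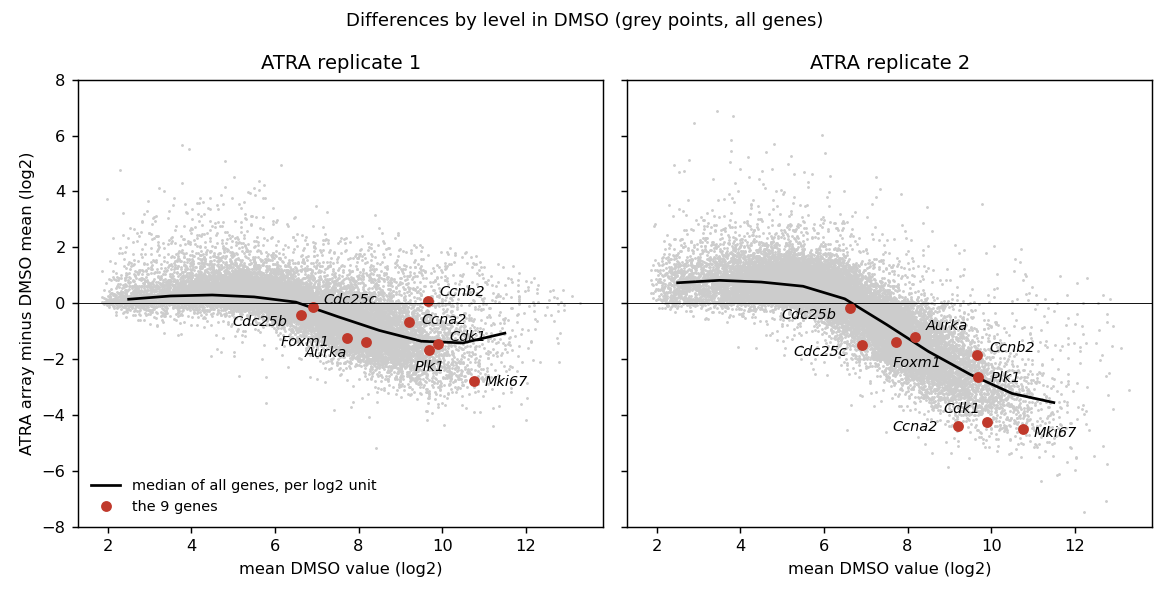
Difference of each ATRA array from the DMSO mean (log2) against the DMSO mean (log2), for all 22180 genes in grey and the 9 genes in red. The black line joins the medians of all genes per log2 unit of DMSO mean, drawn where a step holds at least 100 genes. Mki67 lies under the line in both arrays and Ccnb2 over it in both. Plk1 lies close to it.

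The profile most typical of the 9 genes, the median of their deviations from DMSO, stood at -1.25 in ATRA replicate 1 and -1.87 in replicate 2. Foxm1 was closest to it (root mean square distance over 5 arrays 0.23) and Mki67 farthest (1.37). The profile is made from these same genes, and its value in ATRA replicate 1 is that of Foxm1, so this closeness is partly built in. Among all other genes the nearest were Prr11, at a distance of 0.03, Immt, a mitochondrial inner membrane organizer (0.05), and Tesk1, a protein kinase, Panx1, a channel protein, and Grpel1, a mitochondrial chaperone cofactor, with distances from 0.06 to 0.07. All but Tesk1 had DMSO means from 8 to 9, where the medians of all genes were -0.97 and -1.73. With the level trend removed, Prr11, Immt, Panx1 and Grpel1 differed by 0.01, -0.32, -0.05 and -0.21. Tesk1, from 6 to 7, differed by -1.57 (adjusted p = 0.0569).

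Partners and regulators of the 9 genes were taken from 4 lists of 64 genes, 62 of them measured. In all, 27 were called lower and 1 higher (34 did not pass), against 15.5% and 6.48% of all genes, with a median of -1.45. Each list's counts below stand beside the same shares of all genes, and beside 28.1%, 52.4% and 57.5% called lower among all genes with DMSO means from 7 to 8, 8 to 9 and 9 to 10. Under the level trend fit 2 were called lower and 1 higher, and the median was -0.03. Without any 1 of the DMSO arrays 0 passed (limma, 27 or 28 lower and 1 higher at an unadjusted p under 0.05), as was the case among all genes. No pathway counts are given without ATRA replicate 1 or 2, where a lone ATRA array was left.

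Among genes that control CDK1 activity, 3 of 10 were called lower and 0 higher, with a median of -0.92 on the deposited values and 0.28 with the level trend removed. Cdk2, the S phase kinase, fell by 1.75 (adjusted p = 0.0071), from 9.43 ± 0.14 (SD, n = 3) to 7.69 and 7.67, a difference that became 0.19 with the trend removed. Cdk7, the kinase that activates CDK1, fell by 1.86 (adjusted p = 0.0157) and also passed with the trend removed (-0.95, adjusted p = 0.0474). Cdc25a, the third CDC25 phosphatase, fell by 1.99 (adjusted p = 0.0392), from 8.20 ± 0.31 to 6.82 and 5.61, and did not pass with the trend removed (adjusted p = 0.164).

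Partners of Aurora and Polo kinases held 3 genes called lower and 1 called higher of 15 (median -1.22), near the shares of 15.5% and 6.48% of all genes, and 0 in either direction with the level trend removed (median -0.14). Aurkb, the Aurora kinase of the chromosomal passenger complex, fell by 1.48 (adjusted p = 0.0130), from 9.59 ± 0.10 to 8.34 and 7.89, but differed by 0.54 with the level trend removed and by 0.11 after cyclic loess normalization, and did not pass there. Incenp, the scaffold of that complex, fell by 1.56 (adjusted p = 0.0103), and Ttk, a spindle checkpoint kinase, by 1.06 (adjusted p = 0.0318). These calls ended with the trend removed, at -0.45 and -0.02. The gene called higher was Plk2, a stress-responsive Polo-like kinase, with a difference of 0.61 (adjusted p = 0.0495), and it is named although it is outside the naming rule. With the trend removed its difference was 0.10 (adjusted p = 0.731). Plk2 had a DMSO mean between 4 and 5, where 416 of 2790 genes were called higher. Median differences at that level were 0.30 and 0.76 in ATRA replicates 1 and 2.

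The anaphase-promoting complex (APC/C) destroys cyclins at the end of mitosis. Of 18 of its subunits, activators and partners, 12 were called lower and 0 higher (median -1.58). Cdc23, a subunit, fell by 2.85 (adjusted p = 0.0063), from 9.38 ± 0.06 to 6.53 and 6.51. The subunit gene Anapc5 fell by 3.56 (adjusted p = 0.0087), from 11.64 ± 0.08 to 8.60 and 7.56. Of 133 genes with DMSO means from 11 to 12, 45 were called lower. The activator gene Fzr1 fell by 1.80 (adjusted p = 0.0069), a difference that became 0.02 with the level trend removed. In that fit Cdc23 was at -0.94 (adjusted p = 0.204) and Anapc5 at -0.81 (adjusted p = 0.361). It called 0 of the 18 in either direction, and the median was 0.03.

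Of 19 genes of the MuvB complex and the MYB, E2F and pocket protein families, which time the transcription of cell cycle genes, 9 were called lower and 0 higher (median -1.71). E2f8, a repressor of the E2F family, fell by 2.43 (adjusted p = 0.0064), from 10.09 ± 0.13 to 7.79 and 7.53. Among all genes with DMSO means from 10 to 11, 51.7% were called lower. Mybl2, the MYB factor that joins MuvB, also fell by 2.43 (adjusted p = 0.0088). When its features were averaged the difference was -1.31 (adjusted p = 0.0196). With the level trend removed E2f8 was at -0.20 (adjusted p = 0.801) and Mybl2 at -0.42 (adjusted p = 0.696). Rbl2, a pocket protein of resting cells, fell by 1.17 (adjusted p = 0.0102), a difference that became 0.16 with the trend removed. In that fit 1 gene was called lower and 1 higher. They were Lin54 (-1.66, adjusted p = 0.0267), whose protein binds the TTTGAA core, and Lin37 (1.04, adjusted p = 0.0490), both of the MuvB complex and both named after their values were seen.

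**Figure D4:**
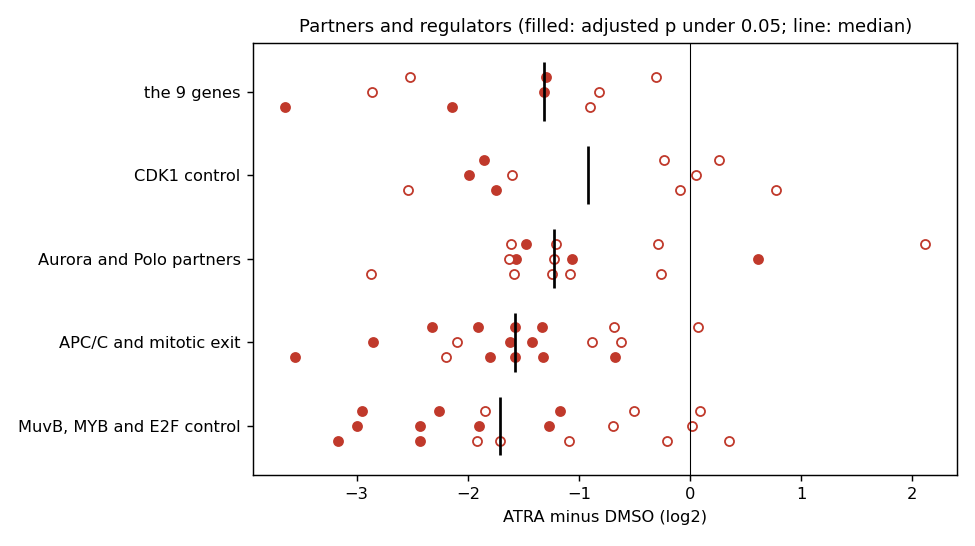
Log2 difference between ATRA and DMSO (limma, deposited values) for the 9 genes and for 4 lists of partners and regulators. Each circle is a gene, filled where the adjusted p is under 0.05, and black lines are medians. The list genes spread from -3.56 for Anapc5 to 2.12 for Aurkc, which did not pass, and 1 filled circle, Plk2, lies above 0. The list medians lay between -0.19 and 0.28 with the level trend removed.

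HSC markers had lower mean values in the ATRA arrays than in DMSO. Of 8 measured markers (10 listed), 4 were called lower and 0 higher (Kit, Mecom, Hlf and Gata2), and their mean log2 value was 9.32 to 9.49 in DMSO, 8.13 in ATRA replicate 1 and 6.85 in replicate 2. Beside them 15.5% of all genes, and 52.4% and 51.7% of genes with DMSO means from 8 to 9 and from 10 to 11, the steps of these 4 markers, were called lower. With the level trend removed 0 of the 8 were called and their median was -0.34. Mean values of the other marker lists were 5.84 to 6.19 in DMSO and 6.42 and 6.16 in ATRA for neutrophils and monocytes (1 of 9 called higher, S100a9), and 5.35 to 5.53 and then 5.71 and 6.24 for lymphoid cells (0 of 5 called). They were 4.79 to 5.05 and then 5.56 and 5.55 for mast cells and basophils (0 of 4), 6.33 to 6.44 and then 6.21 and 6.52 for erythroid cells (0 of 4), and 8.20 to 8.37 and then 7.69 and 7.77 for megakaryocytes and platelets (1 of 5 called lower, Itga2b). With the trend removed S100a9 and Itga2b did not pass (adjusted p = 0.272 and 0.766), while Nkg7 of the lymphoid list (0.85, adjusted p = 0.0407) and Pf4 of the megakaryocyte list (2.01, adjusted p = 0.0312) were called higher, both named after their values were seen. The part of any shift in cell types in the differences above was not tested. The retinoic acid targets Dhrs3, Cyp26a1 and Rarb were higher in both ATRA arrays than in all DMSO arrays but did not pass (adjusted p = 0.0515, 0.0663 and 0.0965). Such a separation upwards was found in 33.0% of all genes. Dhrs3 passed with dim genes left out (adjusted p = 0.0420), after quantile normalization (adjusted p = 0.0439) and with an intensity trend and robust prior (adjusted p = 0.0463). Without ATRA replicate 1 or 2, Cyp26a1 differed by 1.12 and 0.63. With the level trend removed the differences of Dhrs3, Cyp26a1 and Rarb were 0.74, 0.38 and 0.25 (adjusted p = 0.196, 0.252 and 0.335). The housekeeping genes Actb and Gapdh were called lower, at -2.30 (adjusted p = 0.0089) and -1.48 (adjusted p = 0.0074). With the level trend removed Actb was at -1.52 (adjusted p = 0.0379), while Gapdh turned to 1.41 (adjusted p = 0.352), and to 0.84 after cyclic loess normalization.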

How the data were processed

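The authors deposited log2 expression values, 1 per array feature and array, for 3 DMSO and 2 ATRA samples grouped by title. The submitters' processing notes list oligo 1.36.1, limma 3.28.20 and RMA (robust multi-array average), without saying what each did. For genome build and array annotation the sources used here give nothing. Per the labels' protocols, RNA was extracted with PicoPure columns, DNase-treated and labelled with biotin by in vitro transcription. Such amplification can distort levels. Values were used as deposited, without a filter. Of 41345 features, 23521 name 1 gene (1814 several, 16010 none), with symbols updated by gene identifier for 23328 through the GRCm38 table. Each gene is its single-gene feature with the highest mean, which gave 22180 genes.

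ATRA was compared with DMSO by limma 3.58.1 (R 4.3.3; lmFit, eBayes; 3 residual degrees of freedom, a prior worth 1.52), two-sided, p-values adjusted over all genes (Benjamini-Hochberg); every adjusted p is from this test. Intervals are at 95%. The number of arrays limits the precision. Named genes are the 9 measured members, the 3 smallest p of each pathway list, the 5 nearest profiles, and Dhrs3, Cyp26a1, Rarb, Actb and Gapdh. The members and lists were chosen with earlier results of these data known. Alternatives left out arrays, added a replicate block, and changed filter, normalization, variance model, threshold and feature rule.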

Additional observations from a re-analysis of the deposited data

How the results depend on the processing

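Leaving out 1 array in turn gave 0 to 7 of the 9 genes lower and 0 higher, a median of the 9 genes of -1.87 to -1.25, 0 to 6783 of all genes lower and 0 to 7424 higher, and 0 to 52 pathway genes lower and 0 to 7 higher. The lone ATRA array is then assumed to vary like the DMSO arrays. All values of 0 lower came without DMSO replicate 1, 2 or 3. With the replicate number as a block, 0 of the 9 genes, 0 pathway genes and 0 genes in all passed in either direction (limma, 5 of the 9 genes and 5412 genes in all at an unadjusted p under 0.05). The labels do not say that the numbers pair samples. Deviations of same-numbered arrays from their group means correlated at 0.13 and 0.10 across genes. Those of DMSO replicate 1 with ATRA replicate 2, and of 2 with 1, correlated at -0.13 and -0.10. With 2 ATRA arrays the deviations mirror each other, so these values cannot decide whether samples were paired. With array weights the counts were also 0 (limma, 4 of the 9 genes and 4377 genes in all at an unadjusted p under 0.05).

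Cyclic loess normalization gave 2 of the 9 genes lower and 1 higher, a median of -0.89, 1504 genes lower and 771 higher, and 9 pathway genes lower and 5 higher. With the level trend removed these were 1 lower, a median of -0.49, 221 genes lower and 479 higher, and 2 pathway genes lower. Quantile normalization gave 1743 genes lower and 439 higher, with 11 pathway genes lower. Centring arrays on their medians gave a median of -1.58 for the 9 genes, 560 genes higher and 0 pathway genes higher. More or fewer higher genes were also found with dim genes left out (942), at an adjusted p under 0.1 (3083) and in the fit over all features (2181), where 0, 3 and 0 pathway genes were higher, as were 0 with an intensity trend and robust prior. Signs turned for Ccnb2 (0.071 without ATRA replicate 2, 0.79 with cyclic loess, 1.16 with the level trend removed), Aurkb (0.11 and 0.54 in the last 2 of these) and Gapdh (0.84 and 1.41). With the trend removed they also turned for Cdk2 (0.19), Fzr1 (0.020), Rbl2 (0.16) and Prr11 (0.011). Leaving out an array or adding a block leaves fewer degrees of freedom. Why results changed was not tested for any setting. Of 108 differences of the 9 genes under settings other than leaving out an array, 91 kept direction and side of the threshold, 14 lost the call, 1 gained it and 2 turned. Many of the 108 had their direction fixed in advance. Changing the dim gene filter, threshold, variance prior or feature rule, or fitting all features, left each difference as in the main fit. Only the call could change there. Also among the 108 is the replicate block, where no ATRA array shares the number of DMSO replicate 3. Its differences equalled those without that array (-3.59 for Mki67 in both). Of 45 differences with 1 array left out, 1 turned, that of Ccnb2 without ATRA replicate 2. Without any 1 of the DMSO arrays all 4 calls were lost.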

Other observations

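The ATRA arrays lay on opposite sides of DMSO for some partners of the genes described, a pattern noticed in the values. In 8 of the 62 measured pathway genes, the first ATRA array was above all DMSO arrays and the second below them all, and in 0 the reverse held. Cks2, a small subunit bound to CDK1, was at 8.44, 8.81 and 8.54 in DMSO and at 10.24 and 6.78 in ATRA. Anapc13, an APC/C subunit, was at 11.34, 11.47 and 11.54 in DMSO and at 12.75 and 8.79 in ATRA. The subunit genes Cdc26 and Anapc10 and the CDK1 partner Cks1b did the same, as did Mnat1, Pttg1 and Tfdp2. This order held in 4.37% of all genes and its reverse in 3.19%. Among the 1868 genes with a DMSO mean of 9 or more it held in 11.8% and the reverse in 0.161%. Of the 8 pathway genes, 2 lay at that level and 6 at DMSO means from 7 to 9, where it held in 7.54% of 5991 genes and the reverse in 1.82%. Of the 9 measured genes, 0 showed it.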
